A study of Homo sapiens with 8 samples.

Results

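The comparison is between untreated H1 human embryonic stem cells on day 7 and on day 5 of a 7-day experiment. H1 is an established line of pluripotent cells, able to form the tissues of the embryo. The 4 libraries without doxycycline were taken from the 8 libraries of the series, by their labels: 2 lines on 2 days, with 1 library per group. One line carries an inducible short hairpin RNA against EXOSC3, a core subunit of the RNA exosome (shEXOSC3), and the other a non-silencing hairpin (shNS); in these 4 libraries neither was induced. Both lines were at passage 40 to 60 and grew without feeder cells on Matrigel, at 5% oxygen, in medium with puromycin, 50 ng/mL basic fibroblast growth factor, N2 and B27 supplements and bovine serum albumin. The days stand in separately made tables, so day and table cannot be told apart, and no p-value is given for any difference between them. The 2 lines serve as a pair of measurements of the same day difference, and the gap between them is the measure of spread throughout. A difference in preparation or table that both lines of a day share does not show in this gap.

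Cultured stem cells of this kind divide fast and hold their state through POU5F1, SOX2 and NANOG, with signals from fibroblast growth factor and from Nodal or activin in support. Cells make their own sterols when the medium brings little: SREBP2, the product of SREBF2, is kept in the endoplasmic reticulum by INSIG proteins while sterol is plentiful, and is released to switch on the enzymes of cholesterol synthesis when it is scarce. Immediate early genes such as EGR1 and FOSL1 are transcribed within minutes of a growth factor or a change of medium. Replication-dependent histone mRNAs are made in S phase, end in a stem-loop in place of a poly(A) tail, and are seen in libraries made from total RNA. Small nucleolar RNAs guide the modification of ribosomal RNA and are mostly cut from introns.

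Values are FPKM, fragments per kilobase of transcript relative to the size of the library, summed over the transcripts of a gene and put on one scale across the 4 libraries. Longer genes were kept apart from short RNAs (small nucleolar, nuclear, Cajal body, microRNA, vault and similar entries by symbol, and any locus under 300 bp). A difference is log2 of (FPKM + 1) on day 7 over (FPKM + 1) on day 5, and a gene was called higher or lower where this reached 1 (2-fold) in the same direction in both lines. Where 4 values follow, they stand in the order shNS day 5, shEXOSC3 day 5, shNS day 7, shEXOSC3 day 7, and a pair of differences is shNS first. The deposited FPKM summed to between 675742 and 767679 per library. From the FPKM that a single fragment is worth, the 4 libraries held about 21100000, 16000000, 13300000 and 18800000 fragments, so that a 2-kb gene at 5 FPKM rests on 133 to 211 fragments. All 12 markers of pluripotent cells reached 1 FPKM on average, with summed levels of 2603 and 2661 FPKM on day 5 and 3496 and 3463 on day 7. Most of the difference of these sums was L1TD1, at 312, 351, 905 and 903 FPKM. Not all markers were higher on day 7: DNMT3B stood at 527, 546, 439 and 411 FPKM. The 5 mesendoderm markers summed to between 0.454 and 1.14 FPKM and the 5 endoderm markers to between 0.819 and 1.10, with none of either at 1 FPKM. The 8 neuroectoderm markers, of which 2 reached 1 FPKM, summed to 98.2 and 93.8 FPKM on day 5 and 144 and 132 on day 7. The 6 mesoderm markers, of which 2 reached it, summed to 38.1 and 40.0 and to 66.5 and 73.1. Most of that was KDR, at 36.5, 38.0, 63.4 and 69.1 FPKM (0.78 and 0.84), which was not called. The 8 of trophectoderm and amnion, of which 1 reached it, summed to 8.34 and 7.39 and to 10.6 and 11.6. Most of that was KRT7, at 8.10, 7.28, 9.43 and 9.64 FPKM (0.20 and 0.36). The part of other cell types in the differences was not tested.

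Of 12446 longer genes with a mean of at least 1 FPKM, 808 (6.49%) were higher on day 7 in both lines and 1053 (8.46%) were lower. None (0%) was 2-fold higher in one line and 2-fold lower in the other. Counts within the gene lists below are to be read beside the shares of 6.49% and 8.46%. The median size of the day difference was 0.50 and the median gap between lines 0.16, and 82 genes had a gap of 1 or more. Across genes the day differences of the lines went together, with a Pearson r of 0.94 and a Spearman rho of 0.94 over the 12446 genes; the 2 lines share no library, but each day's libraries may share a preparation. Without scaling, the median gene was 0.12 lower on day 7 in each line, and 592 genes were then called higher and 1322 lower. The genes nearest the threshold on the higher side were DDX24 just inside, at 57.9, 57.8, 131 and 117 FPKM, and SSBP1 just outside, at 251, 253, 513 and 508 FPKM. On the lower side they were COPE just inside, at 62.4, 70.9, 30.7 and 28.6 FPKM, and GLRX5 just outside, at 87.5, 107, 43.2 and 41.0 FPKM.

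**Figure D1:**
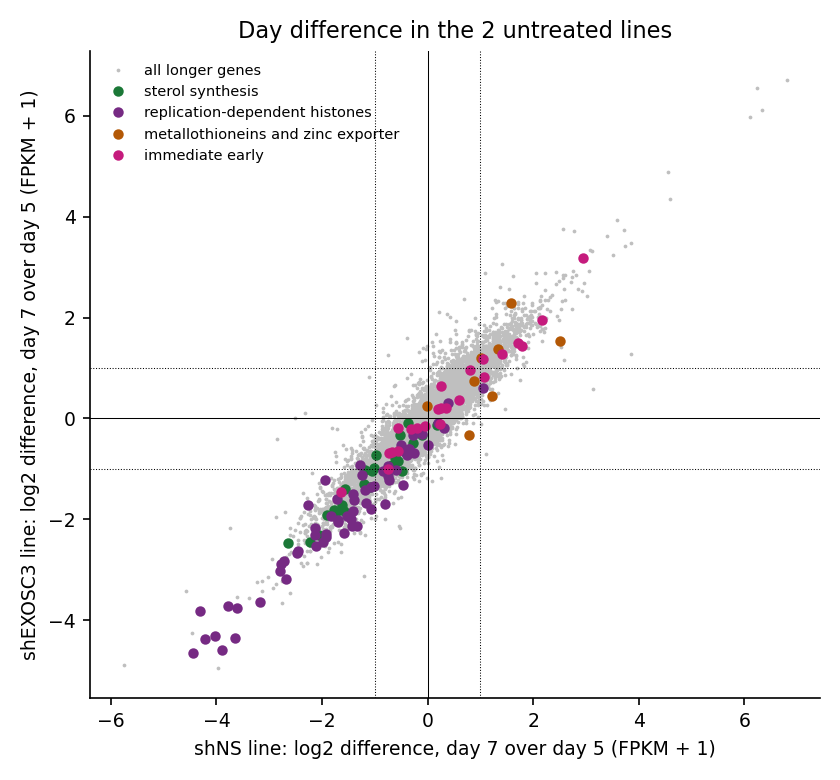
Day difference (log2 of FPKM + 1, day 7 over day 5) of each longer gene in the shNS line (horizontal) and in the shEXOSC3 line (vertical); dotted lines mark 2-fold. Sterol synthesis and histone genes lie mostly at the lower left, and the 2 lines follow each other over 12446 genes (Pearson r 0.94).

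The base composition of the transcript moved with the day. Spearman's rho between transcript GC and the day difference was -0.52 in each line, as a description over genes of the same libraries. Over the 1211 genes lowest in GC (median 37.3%) the median difference was 0.38 and 0.45, and 10.6% were called higher. Over the 1210 genes highest in GC (median 64.1%) it was -0.89 and -0.92, and 38.0% were called lower. Genes called lower had a median GC of 61.0% and a median length of 1886 bases, those called higher 43.7% and 3119 bases, and all longer genes 48.5% and 2810 bases. The part of base composition in the single differences was not tested. A difference relative to the median of genes of like GC and length was therefore computed, after the data had been seen, for the 12094 genes (97.2%) with a matched transcript. By this adjusted difference 649 genes (5.37%) were higher and 412 (3.41%) lower; 450 and 336 of them were also called without it. For the main groups below, counts or medians are given on both measures.

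**Figure D2:**
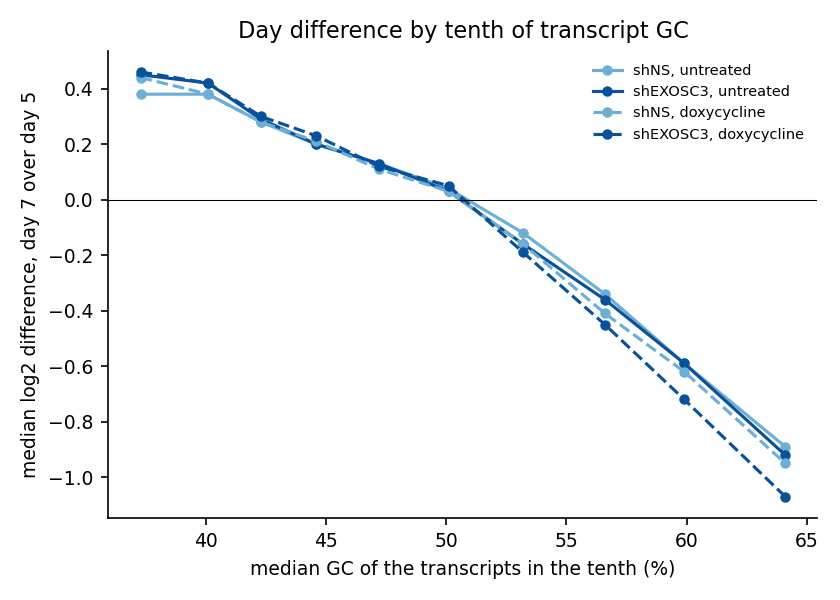
Median day difference (log2) of the longer genes in 10 equal bins of transcript GC, plotted at the median GC of the bin (%), for the untreated lines (solid) and for the doxycycline libraries of the same days (dashed). The curves start between 0.38 and 0.46 at the lowest GC and end between -0.89 and -1.07 at the highest.

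The doxycycline libraries of the same lines and days were not used to call the genes, though they share the tables. They are not a plain repeat of the untreated day difference. In the shEXOSC3 line EXOSC3 stood at 10.8 FPKM on day 5 and 12.8 on day 7 with doxycycline, against 23.8 and 26.2 without. The part of doxycycline and of lower EXOSC3 in the day differences of these libraries was not tested. In the doxycycline libraries, 738 of the 12446 longer genes (5.93%) were higher on day 7 in both lines and 1154 (9.27%) lower. Of the 808 genes higher in untreated cells, 573 (70.9%) were also called higher there, and of the 1053 lower ones 898 (85.3%) were also called lower. The sign was the same in both doxycycline lines for 801 of the 808 and 1052 of the 1053.

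Genes of cholesterol synthesis and uptake were lower on day 7. All 25 listed genes were measured: 13 were called lower (52.0%, against 8.46% of all longer genes), 0 higher, and 24 were below 0 in both lines. The median difference was -1.06 in shNS and -1.04 in shEXOSC3. Their median GC, 50.5%, is near that of all genes, and after the adjustment 10 were lower, with medians of -0.98 and -0.91. In the doxycycline libraries 13 were lower.

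Regulators of the pathway differed by unequal amounts. INSIG1, the sterol-sensing anchor of SREBP and itself an SREBP target, stood at 20.7, 24.6, 4.24 and 4.15 FPKM (-2.05 and -2.31). The lines lay close together within a day for INSIG1. SREBF2 itself was called lower by less, at 25.2, 24.1, 10.5 and 11.3 FPKM (-1.19 and -1.03) and was no longer called after the adjustment, at -0.91 in shEXOSC3.

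Among the enzymes, DHCR7, which makes cholesterol from 7-dehydrocholesterol, stood at 37.4, 39.9, 7.28 and 6.46 FPKM (-2.22 and -2.45). MSMO1, the C4-methylsterol oxidase, stood at 74.1, 78.6, 23.3 and 23.2 FPKM (-1.63 and -1.72). MVK, mevalonate kinase, stood at 6.78, 6.27, 1.09 and 0.937 FPKM (-1.90 and -1.91). The mevalonate-pathway genes MVD (-1.58 and -1.83) and IDI1 (-1.21 and -1.31), LSS, which closes the sterol ring (-1.57 and -1.41), HSD17B7 (-1.74 and -1.86) and TM7SF2 (-1.10 and -1.37) were also called lower. HMGCS1, the synthase at the head of the mevalonate pathway, missed the threshold at 58.8, 56.9, 29.4 and 33.9 FPKM (-0.98 and -0.73). The 2 members at the upper end were CYP51A1 (-0.11 and -0.33; 91.8% of its sequence words occur in other genes) and NSDHL (0.17 and -0.13). HSD17B7 also shares 68.1% of its words. MSMO1, with a GC of 38.1%, differed by more after the adjustment (-2.07 and -2.13), and MVD, with 65.6%, by less (-0.66 and -0.86). MVD, LSS (-1.01 and -0.96) and TM7SF2 (-0.19 and -0.40) were no longer called after it, while HMGCS1 then was (-1.29 and -1.11).

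**Figure D3:**
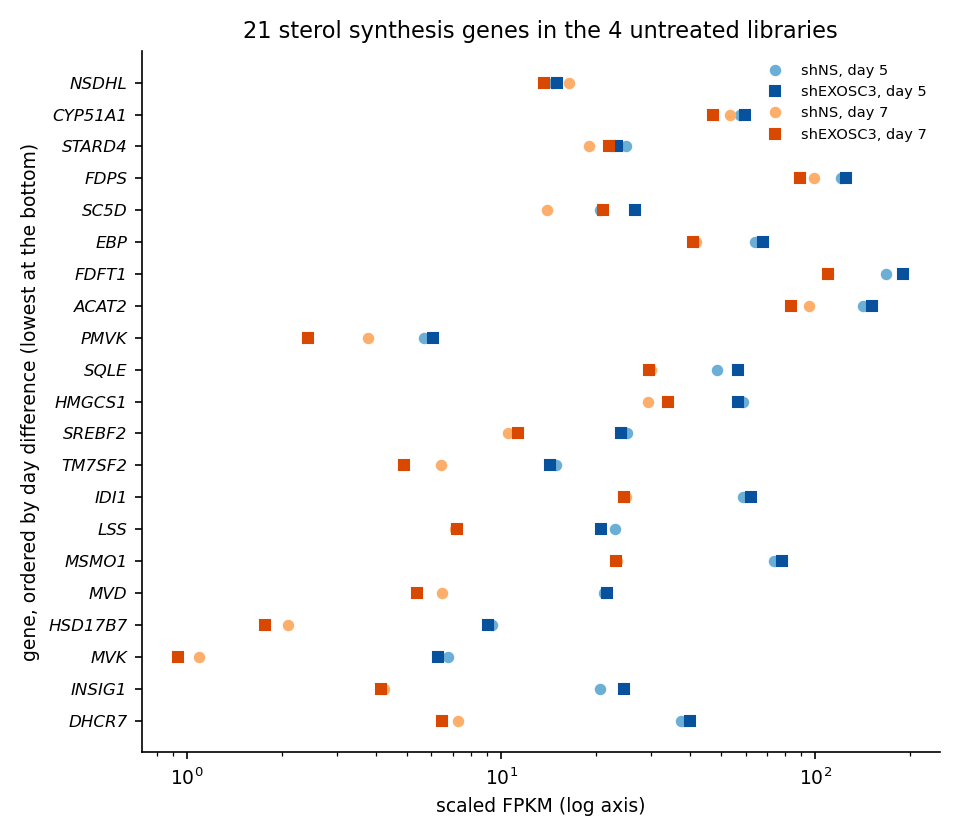
Scaled FPKM (log axis) of 21 of the 25 sterol synthesis and uptake genes in the 4 untreated libraries, ordered by day difference. Within each line the day 7 point (orange) lies left of the day 5 point (blue) for 20 of the 21 genes; NSDHL is the exception.

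Promoters of the group are shown because the members differed together. RefSeq windows from 250 bases before to 50 after the start (GRCh38.p14) were at hand for 10 of the 13 genes called lower. The NF-Y motif CCAAT, on either strand, stood in 9 of these 10 windows (90%), in 6 of 8 (75%) for the sterol genes not called, in 37.4% of the 10081 windows of all longer genes tested and in 35.7% of all 27305 windows. NF-Y is a general promoter factor that is known to act with SREBP. A sterol response element, TCACNCCAC, chosen after the values were seen, stood in 1 of the 10 windows, in 1.2% of those of all longer genes tested and in 1.15% of all windows. The E-box CACGTG stood in 2 of 10 and in 10.2% of windows of all longer genes tested. The 250 bases upstream of MSMO1 (chr4:165327419-165327668, plus strand) and of DHCR7 (chr11:71448394-71448643, minus strand) follow, with CCAAT or its complement ATTGG in capitals.
MSMO1: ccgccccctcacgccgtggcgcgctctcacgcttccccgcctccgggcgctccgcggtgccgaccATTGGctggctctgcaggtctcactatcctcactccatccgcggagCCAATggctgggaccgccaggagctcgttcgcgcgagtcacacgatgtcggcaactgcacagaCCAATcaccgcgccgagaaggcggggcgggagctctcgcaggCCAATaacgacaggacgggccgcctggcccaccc
DHCR7: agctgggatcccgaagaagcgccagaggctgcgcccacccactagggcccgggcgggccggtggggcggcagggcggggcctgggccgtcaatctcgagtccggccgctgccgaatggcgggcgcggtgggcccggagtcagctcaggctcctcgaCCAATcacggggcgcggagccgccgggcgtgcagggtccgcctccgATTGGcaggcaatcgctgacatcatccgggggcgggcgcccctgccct
MSMO1 holds 4 such matches and DHCR7 2. A match describes these letters and does not show a site.

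Genes of fatty acid synthesis are targets of the related SREBP1. Of 14 measured, 2 were called lower (14.3%), 0 higher, and 12 were below 0 in both lines, with medians of -0.52 and -0.59. FADS2, a fatty acid desaturase, stood at 105, 107, 27.5 and 25.3 FPKM (-1.90 and -2.04). FASN, fatty acid synthase, stood at 28.3, 27.1, 7.74 and 9.04 FPKM (-1.74 and -1.49). After the adjustment FADS2 was at -1.32 and -1.42 and FASN, with a GC of 65.3%, at -1.08 and -0.89, so that only FADS2 of these 2 passed.

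Replication-dependent histone genes made up the most widely lowered group of the lists. Of 62 measured, 41 were called lower (66.1%) and 0 higher, with medians of -1.42 and -1.76. After the adjustment 31 were lower and 1 higher, with medians of -1.18 and -1.37; in the doxycycline libraries 45 were lower. H3C7 stood at 834, 957, 37.2 and 37.3 FPKM (-4.45 and -4.65), H3C6 at 1285, 1063, 91.7 and 79.2 FPKM (-3.79 and -3.73), and H3C12 at 641, 659, 38.2 and 32.4 FPKM (-4.03 and -4.31). These 3 H3 genes were among the 15 lowest of all longer genes, and their day 5 and day 7 values lay more than 10-fold apart. H4 genes spanned a wide range. The H4 gene with the lowest mean over the lines, H4C11, stood at 20.7, 23.2, 0.466 and 0 FPKM (-3.89 and -4.59), and the one with the highest, H4C13, at 554, 725, 558 and 500 FPKM (0.01 and -0.53). H4C13, H4C5 (-0.85 and -1.04) and H4C8 (-1.28 and -0.93) were the 3 H4 genes not called. Linker histone H1-2 stood at 1246, 1389, 544 and 516 FPKM (-1.19 and -1.43; -0.78 and -0.89 after the adjustment, no longer called). H2BC12 was at the other end with 65.0, 76.9, 135 and 118 FPKM (1.04 and 0.61), but shares 88.6% of its words with other genes. Of the 62, 18 share at least 20% of their sequence words with other genes, so reads of single members may be divided differently between tables.

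Genes that serve S phase and mitosis did not show the same pattern. Of 39 genes of DNA replication 2 were higher (5.13%) and 3 lower (7.69%), with medians of -0.06 and -0.15; after the adjustment 0 were higher and 0 lower, with medians of -0.14 and -0.21. Before it, the cyclin CCNE2 stood at 2.48, 2.32, 6.77 and 9.10 FPKM (1.16 and 1.61), and the licensing factor CDT1 at 22.7, 24.4, 6.25 and 5.62 FPKM (-1.71 and -1.94); after it they were at 0.70 and 1.13 and at -0.78 and -1.06. Of 36 mitotic genes 2 were higher (5.56%) and 1 lower (2.78%), with medians of 0.27 and 0.13. After the adjustment 0 were higher and 1 lower, with medians of 0.05 and -0.05. MKI67, the proliferation marker, stood at 13.2, 14.1, 33.7 and 33.1 FPKM (1.29 and 1.18; 1.09 and 0.96 after the adjustment, no longer called), and CDC20, an activator of the anaphase-promoting complex, at 74.1, 79.1, 25.9 and 27.9 FPKM (-1.48 and -1.47; -1.17 and -1.12 after it).

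Windows were at hand for 38 of the 41 histone genes called lower. CCAAT stood in 33 (86.8%, against 37.4% of the windows of all longer genes tested), the octamer ATGCAAAT in 15 (39.5%, against 1.53%) and the TATA box TATAAA in 23 (60.5%, against 5.62%). These motifs are long known in histone promoters. H2AC11, at 891, 960, 310 and 249 FPKM (-1.52 and -1.94), is shown as the lowest of the 4 genes with all 3 motifs, a TATA box near the start and under 20% of shared words. Its 250 bases upstream (chr6:27132793-27133042, plus strand) have CCAAT, the octamer and TATAAA in capitals on either strand, so that ATTGG and TTTATA mark the other strand.
H2AC11: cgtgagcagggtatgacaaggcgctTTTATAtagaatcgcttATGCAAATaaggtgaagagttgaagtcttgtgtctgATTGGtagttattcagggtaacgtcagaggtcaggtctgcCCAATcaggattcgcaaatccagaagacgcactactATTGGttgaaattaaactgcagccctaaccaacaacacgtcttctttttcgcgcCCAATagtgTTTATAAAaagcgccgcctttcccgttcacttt

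Among immediate early genes more were called higher than lower. Of 23 measured, 6 were called higher (26.1%, against 6.49% of all longer genes) and 1 lower, with medians of 0.25 and 0.20; after the adjustment 8 were higher and 0 lower, with medians of 0.71 and 0.68. FOSL1, an AP-1 subunit, stood at 1.01, 0.745, 14.5 and 14.9 FPKM (2.94 and 3.18). EGR1, a zinc finger factor induced through ERK and SRF, stood at 3.73, 4.38, 20.3 and 19.8 FPKM (2.17 and 1.95). Within a day the lines lay close together in both genes, while the distance between days is what the rule selects. KLF10 (1.79 and 1.44), EGR2 (1.41 and 1.28), EGR3 (1.72 and 1.50) and MYC at 16.5, 15.1, 35.1 and 35.6 FPKM (1.05 and 1.18) were the other 4. The values of EGR2 (0.303, 0.245, 2.46 and 2.03 FPKM) and EGR3 (0.167, 0.393, 2.84 and 2.94 FPKM) were low. FOS (0.60 and 0.36) and JUN (0.35 and 0.20) were not called. Of the 23, 13 were above 0 in both lines and 9 below 0 in both. JUND, a GC-rich AP-1 gene (69.7% GC), was the member called lower, at 21.9, 23.1, 6.30 and 7.75 FPKM (-1.65 and -1.46), but at -0.73 and -0.49 after the adjustment. In the doxycycline libraries 4 of the 23 were higher, without EGR2 (2.03 and 0.89) and MYC (1.37 and 0.81). The labels state that medium was changed every other day, but not how long before harvest the last change was made.

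The EGR1 promoter is shown for its serum response element, the site of SRF. RefSeq windows were at hand for 2 of the 6 genes called higher; the letters of this element, searched on both strands, stood in 1 of them, in 0.0595% of the windows of all longer genes tested and in 0.0366% of all windows. The 250 bases upstream of EGR1 (chr5:138465229-138465478, plus strand) have these letters in capitals.
EGR1: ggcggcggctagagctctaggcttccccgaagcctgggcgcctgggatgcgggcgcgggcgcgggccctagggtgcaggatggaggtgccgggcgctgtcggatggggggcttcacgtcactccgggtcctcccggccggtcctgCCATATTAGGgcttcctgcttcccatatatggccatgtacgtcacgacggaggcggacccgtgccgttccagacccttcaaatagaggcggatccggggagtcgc

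Feedback inhibitors and targets of growth factor signals differed in direction. SPRY4, an inhibitor of receptor tyrosine kinase signalling, stood at 11.5, 10.8, 41.0 and 42.4 FPKM (1.75 and 1.88), while DUSP6, an ERK phosphatase, stood at 77.7, 86.5, 51.3 and 51.5 FPKM (-0.59 and -0.74). FGFR4, a receptor of the list, was lower at 16.3, 14.8, 3.20 and 3.56 FPKM (-2.04 and -1.79), but at -1.11 and -0.91 after the adjustment, no longer called. Of 19 genes of fibroblast growth factor and ERK signalling 1 was higher and 1 lower, with medians of 0.31 and 0.22; after the adjustment 2 were higher and 0 lower, with medians of 0.25 and 0.25. MYL9, a myosin light chain and SRF target, stood at 13.3, 14.2, 52.7 and 47.3 FPKM (1.91 and 1.67). It was the only member called higher of 19 SRF and YAP targets, whose medians were 0.10 and -0.06, and FLNA, an actin crosslinker, the only one called lower (-1.32 and -1.15). After the adjustment MYL9 (2.60 and 2.44) was still called and FLNA (-0.65 and -0.55) was not, and the medians were 0.23 and 0.31. In the doxycycline libraries MYL9 was not called (1.70 and 0.64).

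Metallothioneins bind zinc and copper and are switched on by free zinc through MTF1. Of 8 genes measured in the list, which holds the zinc exporter SLC30A1, also an MTF1 target, 4 were called higher (50.0%, against 6.49% of all longer genes) and 0 lower, with medians of 1.11 and 0.97; after the adjustment 5 were higher, with medians of 1.49 and 1.45. MT2A stood at 20.1, 37.8, 119 and 111 FPKM (2.51 and 1.53). Its 2 day 5 values are almost 2-fold apart, but both lie far under the day 7 values. SLC30A1 stood at 5.46, 4.48, 18.1 and 25.6 FPKM (1.57 and 2.28), MT1G at 22.1, 31.1, 57.7 and 82.4 FPKM (1.34 and 1.38), and MT1M at 3.11, 1.83, 7.29 and 5.48 FPKM (1.01 and 1.20). MT1F (0.78 and -0.33) and MT1H (-0.01 and 0.25) did not pass, and the lines overlapped across days in both. In the doxycycline libraries 3 of the 8 were higher, and MT1M stood at 0.16 and -0.39 there. The MT1 genes are close copies, and MT1G and MT1H share 34.2% and 37.8% of their words, so their separate values are uncertain.

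Core pluripotency factors differed by less than 2-fold. POU5F1 stood at 158, 155, 181 and 177 FPKM (0.20 and 0.20), SOX2 at 205, 240, 277 and 263 FPKM (0.43 and 0.14) and NANOG at 20.2, 17.7, 34.5 and 32.0 FPKM (0.74 and 0.82). POU5F1 shares 75.5% of its words with copies, among them POU5F1B, which stood at 45.7, 55.7, 5.19 and 4.52 FPKM (-2.92 and -3.36); the split of reads between them is uncertain. Of 24 pluripotency genes 3 were called higher (12.5%) and 1 lower (4.17%), with medians of 0.18 and 0.12; after the adjustment 2 were higher and 0 lower, with medians of -0.04 and 0.06. PODXL, the sialomucin that carries the TRA-1-60 and TRA-1-81 stem cell antigens, stood at 109, 98.6, 480 and 502 FPKM (2.13 and 2.34), and at 2.75 and 2.99 after the adjustment. L1TD1, an RNA-binding protein of pluripotent cells, stood at 312, 351, 905 and 903 FPKM (1.53 and 1.36), and at 1.22 and 0.99 after the adjustment, no longer called. UTF1, a chromatin factor with a GC of 76.8%, was called lower at 3.16, 3.03, 0.987 and 0.738 FPKM (-1.07 and -1.21), and stood at -0.06 and -0.10 after the adjustment.

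In the Nodal and activin pathway a ligand, a decoy receptor and a ligand trap were called higher. NODAL stood at 1.21, 1.19, 3.85 and 4.95 FPKM (1.14 and 1.44). BAMBI, a decoy receptor that dampens this signal, stood at 14.2, 13.3, 46.2 and 58.2 FPKM (1.64 and 2.05), and FST, follistatin, which binds activin, at 4.49, 3.37, 16.2 and 11.3 FPKM (1.65 and 1.49). FOXH1, the DNA-binding partner of SMAD2 and SMAD3, was the member called lower, at 15.6, 14.2, 6.48 and 6.43 FPKM (-1.15 and -1.03). FOXH1 has a GC of 63.3% and stood at -0.22 and -0.15 after the adjustment. Over the 17 genes measured, 3 were higher (17.6%) and 1 lower (5.88%), with medians of 0.32 and 0.59; after the adjustment 5 were higher and 0 lower, with medians of 0.08 and 0.25. The ligands GDF3 (-0.10 and 0.01) and INHBA (0.58 and 0.88) were not called, and the inhibitors LEFTY1, LEFTY2 and CER1 were under the minimum. NODAL did not pass in the doxycycline libraries (0.43 and 1.70), while BAMBI (1.42 and 1.61) and FST (2.13 and 1.80) did.

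WNT pathway genes were called in both directions. LEF1, a nuclear effector, stood at 0.832, 0.693, 5.21 and 3.84 FPKM (1.76 and 1.52) and TCF7L2, another, at 5.80, 5.24, 14.0 and 18.2 FPKM (1.15 and 1.63). SFRP1, a secreted WNT antagonist, stood at 90.4, 82.1, 35.5 and 29.2 FPKM (-1.33 and -1.46) and the receptor FZD2 at 2.81, 3.34, 0.682 and 0.697 FPKM (-1.18 and -1.35; -0.26 and -0.39 after the adjustment). The 18 measured genes had medians of 0.29 and 0.21, with 2 called in each direction; after the adjustment 5 were higher and 1 lower, with medians of 0.30 and 0.39. SFRP1 was not called in the doxycycline libraries (-0.36 in shNS).

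Lineage genes were mostly under the minimum. Of 14 mesendoderm genes 12 had a mean under 1 FPKM, as had 10 of 12 mesoderm and 10 of 16 neuroectoderm genes. Among those measured, the neural factor ZIC2 was called higher (1.02 and 1.07) and SOX3 lower, at 19.1, 18.5, 4.73 and 4.20 FPKM (-1.81 and -1.91; GC 63.3%; -0.90 and -0.94 after the adjustment, no longer called). TFAP2C, a factor of trophectoderm and of naive pluripotency, was called higher (1.12 and 1.02). ID3, a BMP target, was called lower at 108, 114, 28.0 and 31.4 FPKM (-1.91 and -1.83), while ID1 stood at 111, 118, 98.6 and 124 FPKM (-0.17 and 0.07). BMP4 stood at 4.47, 4.82, 9.62 and 15.8 FPKM (0.96 and 1.53) and was not called. It was called higher after the adjustment (1.10 and 1.75) and in the doxycycline libraries (1.07 and 1.27). Of the 7 trophectoderm and amnion genes measured, 1 was higher and 1 lower, against 3 and 1 after the adjustment. The 8 fibroblast markers summed to 95.3 and 94.8 FPKM on day 5 and 194 and 218 on day 7, with 2 of them at 0 in all 4 libraries. Most of that sum was THY1, also an antigen of human stem cells, at 71.2, 77.5, 163 and 183 FPKM (1.18 and 1.23). COL1A1, a collagen chain, stood at 5.13, 4.28, 17.1 and 20.8 FPKM (1.56 and 2.05), but was not called in the doxycycline libraries (1.71 and 0.86). The collagen genes COL1A2 (-0.45 and 0.02) and COL5A2 (-0.74 and -0.54) were not called. Of 10 fibroblast and stromal genes measured, 2 were called higher and 0 lower, with medians of 0.09 and -0.02. In bulk RNA a change in the share of a cell type and a change of RNA per cell cannot be told apart.

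**Figure D4:**
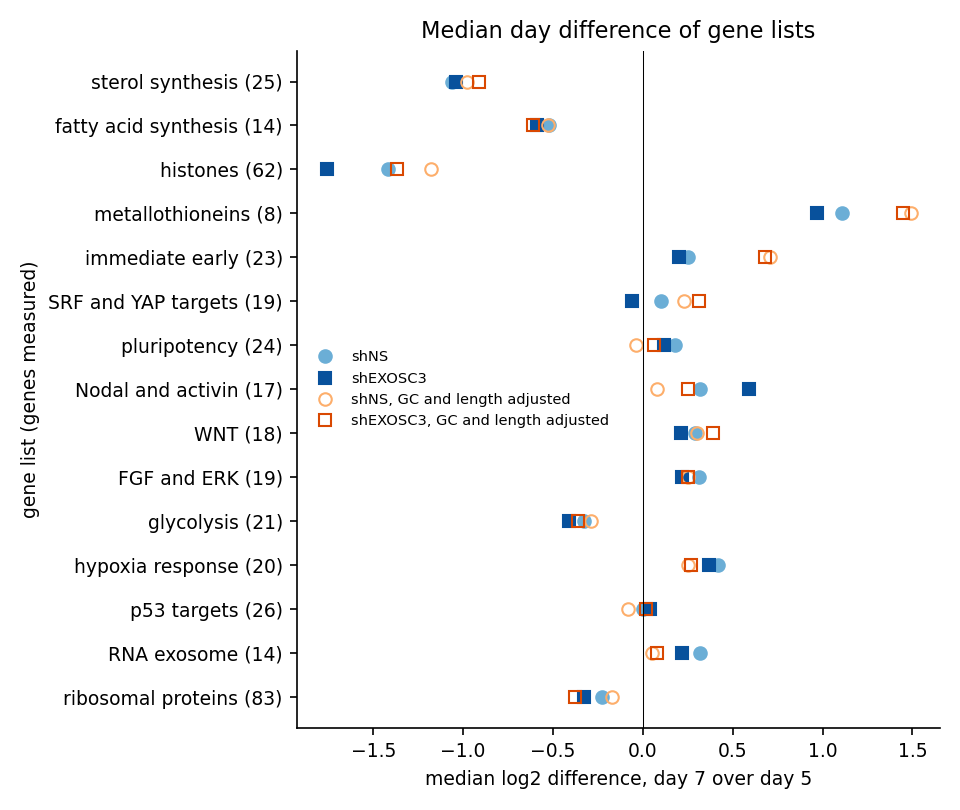
Median day difference (log2) of 15 gene lists in each untreated line (filled) and after the median of genes of like GC and length was subtracted (open); the number of genes measured is in brackets. Histones and sterol synthesis lie lowest on both measures and metallothioneins highest.

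Energy genes leaned lower. Of 21 glycolytic genes 6 were called lower (28.6%, against 8.46% of all longer genes) and 0 higher, with medians of -0.33 and -0.41; after the adjustment 2 were lower, with medians of -0.29 and -0.36. PGAM1, phosphoglycerate mutase, stood at 74.2, 96.5, 7.60 and 8.03 FPKM (-3.13 and -3.43), but shares 48.9% of its words with its many copies. HK2, hexokinase 2, stood at 25.9, 28.1, 8.89 and 8.46 FPKM (-1.44 and -1.62), and SLC16A3, the lactate exporter, at 17.5, 18.0, 4.24 and 4.22 FPKM (-1.82 and -1.86; -0.90 and -0.90 after the adjustment). PKM was at the upper end with 619, 695, 891 and 874 FPKM (0.53 and 0.33). Of 71 nuclear genes of the respiratory chain 14 were lower (19.7%, against 8.46%) and 6 higher (8.45%, against 6.49%), with medians of -0.45 and -0.51; after the adjustment 10 were lower and 5 higher, with medians of -0.28 and -0.39.

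Hypoxia and p53 targets were split. Among 20 hypoxia genes, DDIT4, an mTORC1 inhibitor, stood at 104, 86.1, 22.9 and 24.0 FPKM (-2.13 and -1.80), and P4HA1, a collagen prolyl hydroxylase, at 57.6, 68.5, 164 and 187 FPKM (1.49 and 1.44; 1.02 and 0.95 after the adjustment, no longer called); 2 were higher and 3 lower in all, against 3 and 2 after the adjustment. Among 26 p53 targets 3 were higher and 3 lower, with medians of 0.00 and 0.04; after the adjustment 2 were higher and 1 lower, and in the doxycycline libraries 1 was higher and 2 lower. BAX, the pore-forming inducer of apoptosis, stood at 127, 121, 20.8 and 23.1 FPKM (-2.55 and -2.34) and differed by -1.86 and -1.57 after the adjustment. MDM2, which degrades p53, stood at 78.3, 82.9, 172 and 211 FPKM (1.13 and 1.34), GADD45A at 10.5, 14.5, 35.8 and 35.6 FPKM (1.68 and 1.24) and the death receptor FAS at 2.60, 2.47, 7.88 and 9.56 FPKM (1.30 and 1.61). MDM2 was not called after the adjustment (0.86 and 0.98) or in the doxycycline libraries (0.99 and 1.45), and GADD45A not in the latter (1.19 and 0.84).

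EXOSC3, the target of the hairpin that was not induced here, stood at 26.2, 23.8, 32.0 and 26.2 FPKM (0.28 and 0.14). Of the 14 genes in the exosome list, 13 did not pass and EXOSC5, a ring subunit, was called lower at 31.3, 31.5, 10.2 and 8.53 FPKM (-1.53 and -1.77; GC 61.5%), but not after the adjustment (-0.84 in shNS). The primary transcript MIR17HG, which carries the growth-promoting miR-17 to miR-92 cluster, stood at 13.7, 11.4, 60.1 and 78.5 FPKM (2.06 and 2.68). DANCR, a long noncoding RNA that hosts small nucleolar RNAs, stood at 134, 149, 31.4 and 32.2 FPKM (-2.05 and -2.17). Of 412 ZNF genes 44 were higher (10.7%) and 13 lower, with medians of 0.43 and 0.49 and a median GC of 42.9%. After the adjustment 23 of 390 were higher, near the share of 5.37% over all longer genes, and 3 lower. The medians were then 0.24 and 0.31.

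Genes called both before and after the adjustment, with under 5% of shared words and at least 5 FPKM on the higher day, were ranked by the adjusted difference, a rule made after the data were seen. It left 260 higher and 185 lower genes, of which 215 and 157 were also called in both doxycycline libraries. Among the 20 highest were BCOR, a Polycomb corepressor, at 6.71, 6.17, 40.4 and 44.4 FPKM (2.43 and 2.66), EP300, a histone acetyltransferase, at 5.88, 5.62, 32.4 and 32.5 FPKM (2.28 and 2.34), MAX, the partner of MYC, at 12.1, 13.6, 78.7 and 73.2 FPKM (2.61 and 2.35), and SRRM2, a scaffold of nuclear speckles, at 5.14, 5.69, 26.5 and 30.6 FPKM (2.16 and 2.24). EDARADD, an adaptor of ectodysplasin signalling, stood at 27.9, 29.8, 207 and 181 FPKM (2.84 and 2.56). Among the 20 lowest were KCNK12, a potassium channel gene, at 15.1, 16.1, 1.36 and 1.48 FPKM (-2.77 and -2.79), CCL26, a chemokine, at 22.8, 24.5, 3.62 and 2.37 FPKM (-2.36 and -2.92), and SLC38A5, a glutamine transporter, at 15.6, 14.6, 2.95 and 2.44 FPKM (-2.07 and -2.18). These genes were picked by the size of their difference in both lines, so the distance between their days follows from that choice.

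Many of the very largest differences lay at genes that overlap or copy one another. Of the 15 highest longer genes by the smaller of the 2 differences, 9 of the 14 with transcript data shared at least 20% of their words with other genes, and so did 6 of 13 of the 15 lowest, against 10.7% of all longer genes with transcript data. On chromosome 15, the readthrough entry SERF2-C15ORF63 stood at 0, 0, 68.0 and 61.7 FPKM, while its parts went the other way: SERF2 at 99.6, 103, 10.4 and 10.1 FPKM, and HYPK at 21.1, 20.3, 0 and 0.124 FPKM. UQCRHL, a copy of a respiratory chain gene, stood at 609, 700, 57.5 and 58.3 FPKM and its parent UQCRH at 311, 245, 1131 and 1018 FPKM. PCNA-AS1, antisense to PCNA, stood at 53.3, 28.9, 0 and 0 FPKM. RPS27 stood at 1.37, 2.17, 190 and 220 FPKM and RPS15A at 258, 202, 3103 and 3107 FPKM, while RPS14 stood at 2512, 2577, 374 and 347 FPKM. Of 83 ribosomal protein genes 11 were higher (13.3%, against 6.49% of all longer genes) and 19 lower (22.9%, against 8.46%). Of the 83, 55 share at least 20% of their words. VDAC1, a mitochondrial pore, was among the 15 lowest at 57.4, 91.0, 1.46 and 7.52 FPKM, but differed by -0.72 and -4.33 in the doxycycline libraries; it shares 32.1% of its words. How the reads of such genes were divided in each table was not tested, and these values are given as uncertain.

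Short RNAs differed by far more than longer genes. Of 493 with a mean of at least 1 FPKM, 195 (39.6%) were higher on day 7 in both lines, 45 (9.13%) lower, and 21 (4.26%) went 2-fold or more in opposite directions in the lines. The day differences of the lines had a Pearson r of 0.67 over these RNAs. C/D box small nucleolar RNAs, which guide methylation, were higher in 93 of 144, and 78 of the 144 were listed at 0 on day 5 in both lines, against 2 on day 7. H/ACA box RNAs, which guide pseudouridylation, were higher in 40 of 95 and lower in 15. Of 213 microRNA entries 50 were higher and 16 lower. Of the 24 Cajal body RNAs 5 were higher and 5 lower.

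The share listed at 0 went with the length of the RNA. Among 121 short RNAs under 80 nt, 86.0% and 90.1% were at 0 on day 5 and 33.9% and 23.1% on day 7. Among 117 of 120 to under 150 nt, 9.40% and 29.1% were at 0 on day 5 and 15.4% and 7.69% on day 7. The part of RNA length in these differences was not tested. A value of 0 can also be an estimate that was not made. Of the short RNAs called, 143 of the 195 higher, 22 of the 45 lower and 18 of the 21 opposite ones held a 0 in at least 1 of the 4 libraries, so their calls rest on such values and no fold is printed for them. Among the 128 short RNAs with no 0, 52 were higher, 23 lower and 3 opposite.

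**Figure D5:**
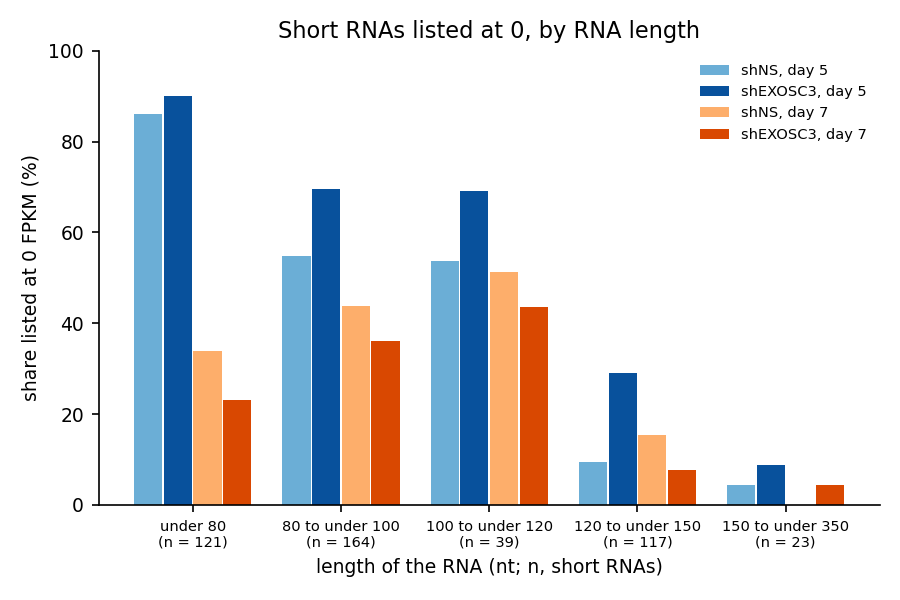
Share of short RNAs listed at 0 FPKM (%), by RNA length, in each of the 4 untreated libraries. Under 80 nt the day 5 libraries lie at 86.0% and 90.1% and the day 7 libraries at 33.9% and 23.1%; from 120 nt upward the ranges of the days overlap or touch.

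The microRNA entries at the 2 extremes are shown by their hairpins. MIR302C belongs to the miR-302 cluster, which is abundant in human pluripotent cells; its entry was listed at 0 and 0 on day 5, 18247 and 17014 FPKM on day 7. The entry MIR198 stood at 0, 0, 11329 and 13317 FPKM. MIR4449 went the other way, at 2119, 1260, 0 and 0 FPKM. The hairpins from RefSeq (GRCh38.p14; MIR302C chr4:112648363-112648430, minus strand; MIR4449 chr4:52712682-52712747, plus strand) have the mature microRNAs in capitals.
MIR302C: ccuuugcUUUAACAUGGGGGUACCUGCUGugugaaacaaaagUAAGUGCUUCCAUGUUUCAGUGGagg
MIR4449: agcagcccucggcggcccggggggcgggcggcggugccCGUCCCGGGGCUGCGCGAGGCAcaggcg
Their mature RNAs follow with the seed, bases 2 to 8, in capitals. The seed of miR-302c-3p is the one its family is known by, and the 2 seeds differ.
hsa-miR-302c-3p: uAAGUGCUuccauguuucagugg
hsa-miR-4449: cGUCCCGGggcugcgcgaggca
These hairpins hold 68 and 66 bases, and a library of this kind does not capture the mature RNA. Among C/D box RNAs, SNORD86 stood at 0, 0, 9190 and 8152 FPKM, SNORD107 at 0, 0, 8367 and 8765 FPKM and SNORD50A at 0, 0, 6962 and 5563 FPKM. MIR1304 at 563, 273, 0 and 0 FPKM, MIR3143 at 246, 244, 0 and 0, MIR1248 at 122, 197, 0 and 0 and MIR6759 at 55.7, 73.6, 0 and 0 were the other 4 lowest.

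Among the longest of the short RNAs are the RNA parts of 2 ribonucleases. RMRP, the RNA of RNase MRP, which cuts ribosomal RNA precursors, stood at 110710, 101651, 15910 and 13816 FPKM (-2.80 and -2.88). RPPH1, the RNA of RNase P, which matures tRNA, stood at 70763, 68515, 2974 and 2613 FPKM (-4.57 and -4.71). The telomerase RNA TERC, measured among the longer genes, stood at 338, 338, 71.7 and 60.9 FPKM (-2.22 and -2.45). These 3 structured RNAs have a GC of 63.1%, 64.6% and 67.1%. The 3 highest transcripts held 27.6% and 26.1% of all FPKM on day 5 and 7.16% and 6.52% on day 7, which is one reason why a common scale over longer genes was used.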

How the data were processed

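Per the labels' protocols, libraries were made with ScriptSeq v2 kits from Trizol-extracted total RNA after removal of ribosomal RNA (Ribo-Zero). CASAVA 1.8, TopHat, Cufflinks and build hg19 are named in the submitters' processing notes; other versions, the annotation and the use of strand are not stated, so antisense and overlapping genes cannot be separated. The deposited values are FPKM of 49235 RefSeq transcripts in each of 4 tables, per the file headers. Of these, 48147 matched a single symbol in a RefSeq table used for names; 55 symbols with a failed transcript were left out. FPKM were summed per symbol, scaled by median ratios over longer genes, and compared as log2 with a pseudocount of 1, which understates differences of low genes; a mean of at least 1 FPKM was required. GC, length and the share of 32-base words found in other genes came from GENCODE transcripts matched by RefSeq accession. The adjustment subtracted medians of 10 GC by 5 length bins.

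Groups came from sample titles. With 1 library per group no test was run. On simulated libraries with 200 genes changed 4-fold, the rule recovered 96.0% and called 2 of the unchanged among 12224 genes. The changed genes were drawn from those of at least 5 FPKM. The simulation held no GC trend between days and no division of reads between copies. It therefore does not give the rate of false calls in these data. Named were the 15 highest and 15 lowest longer genes, the 5 at each end among short RNAs, 2 at each end of every list, EXOSC3, POU5F1, NANOG, SOX2 and FOXH1, and further list members; some genes are not reported here. Gene lists and members were chosen with earlier results of these data known. Python 3.11.15, numpy 2.4.6 and pandas 2.3.3 were used.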

Additional observations from a re-analysis of the deposited data

Results flagged for a closer look

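Among the short RNAs, 21 were at least 2-fold higher on day 7 in one untreated line and at least 2-fold lower in the other, while no longer gene (0) was. They comprised 7 microRNA entries, 6 C/D box RNAs, 5 H/ACA box RNAs and 3 Cajal body RNAs. Of the 21, 18 were listed at 0 in at least 1 of the 4 libraries, so their differences rest on such values, and 3 (SCARNA22, SNORA56 and SNORD12C) were not. The difference between the lines was not tested, since each line has 1 library per day.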

How the results depend on the processing

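Counts of longer genes higher and lower, 808 and 1053, went to 352 and 443 with a pseudocount of 5 and to 402 and 532 over symbols with 1 transcript, which tests fewer genes; the adjusted count of lower genes was 412. Genes in opposite directions numbered 0, but 3 with a pseudocount of 0.1, 1 with no minimum, 2 in the doxycycline libraries and 38 when the transcript with the highest mean stood for the gene; the cause was not tested. With 1 line alone, 972 to 1196 longer genes were higher and 1265 to 1415 lower, and 240 to 310 short RNAs were higher and 70 to 108 lower. Keeping symbols with a failed transcript changed no count, since all their transcripts had failed. Some named genes changed the sign of their mean over the lines in the doxycycline libraries, among them MT1M, whose values are given above, and MIR1248. MIR1248 was at 2.24 there, from -0.01 and 4.48, the latter against a value of 0, so that no opposite difference was shown in both lines. The day differences are paired by line; a model with line and day as terms was not run, since it would rest on 1 library per group. Depth limits the low genes, and the lack of replicate cultures limits all differences.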
